A study of Homo sapiens with 12 samples.

Results

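Aminoacyl-tRNA synthetase genes were followed by RNA-seq in 12 libraries from 2 human cancer cell lines. The genes were taken by name from the deposited gene table: every symbol made of a single letter followed by ARS, alone or with a final 1 or 2, together with EPRS1, FARSA and FARSB. Counts of identifiers that share a symbol were added. This gave 37 genes out of 36486 table rows after summing, of which 20 are named here as cytosolic and 17, with symbols ending in 2, as mitochondrial. All 37 passed the filter on low counts in both cell lines.

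Each synthetase joins 1 amino acid to its matching tRNAs, which makes the charged tRNA that the ribosome uses. The cytosol and the mitochondria mostly have separate sets of these enzymes, and both sets are encoded in the nucleus. GARS1 and KARS1 serve both compartments from single genes, EPRS1 carries the glutamyl and the prolyl activity in a single protein, and FARSA and FARSB are the subunits of the cytosolic phenylalanine enzyme. A group of cytosolic synthetases sits in the multi-synthetase complex, held together by the scaffold proteins AIMP1, AIMP2 and EEF1E1. Many cytosolic synthetase genes are known targets of ATF4, a transcription factor whose translation rises when uncharged tRNA or misfolded protein accumulates. ATF4 binds a composite C/EBP-ATF element with partners of the C/EBP family.

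The TOV-112D line, from an ovarian tumour, makes p53 with the R175H substitution. These cells were treated for 3 h with the vehicle DMSO, with UCI-1001 or with its analog UCI-1014, with 2 libraries in each group. Saos-2 is an osteosarcoma cell line that lacks p53. The p53-null group is the parental line, and the p53-WT group carries p53-WT on a lentivirus under a doxycycline-inducible promoter. Both were sampled 16 h after induction, with 3 libraries in each group. Genotype, the transgene and its vector therefore cannot be told apart in that comparison, nor can doxycycline if the parental line did not receive it. The sources give a dose for UCI-1001 but none for the UCI-1014 libraries, so it is not known whether the doses of the compounds matched. Nothing in the labels says that libraries of a group came from separate cultures, so the p-values measure the spread between these samples, which may be technical.

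Library totals ran from 17762027 to 24629558 deposited counts. CDKN1A, the best known target of p53, served as a check of the p53 labels. In CPM (counts scaled by library size, with edgeR's TMM factors), it rose from 64.7 ± 12.5 to 8336 ± 612 CPM with p53-WT (SD, n = 3). Defining markers of the labelled cell types were mostly absent, and none of the 3 marker lists had more members present in the line it was meant for than in the other line. Of 7 osteoblast markers, 2 (RUNX2 and SPP1) reached 1 CPM in every Saos-2 library, and SP7 was at 0 in all 6, while 3 did so in TOV-112D cells, where COL1A1 had a median of 49.1 CPM against 0.931 CPM in Saos-2 cells. Of 5 epithelial markers, 1 (EPCAM) did so in the TOV-112D libraries, against 2 in those of Saos-2. KRT18 was at 0 in all 6 TOV-112D libraries and lay between 401 and 558 CPM in Saos-2 cells. Of 4 Mullerian markers, 1 (WT1) did so in the TOV-112D libraries, against 2 in those of Saos-2. Some levels went with the labels. SPP1 had a median of 26.2 CPM in Saos-2 cells against 0.127 CPM in TOV-112D cells. EPCAM and CDH1 had medians of 2.72 and 1.23 CPM in TOV-112D cells, against 0 and 0.183 CPM in Saos-2 cells. ALPL, COL1A1, KRT8, KRT18, PAX8 and WT1 went the other way. The names of the lines are therefore used as the labels give them, since these markers point both ways and do not settle them. Replicate 1 of both Saos-2 groups stood apart. The median gene differed by 0.17 and 0.175 on a log2(CPM + 1) scale between p53-null replicate 1 and replicates 2 and 3, against 0.0877 between the latter, and for p53-WT these values were 0.223, 0.21 and 0.0798. The Saos-2 results are therefore also given without both libraries numbered 1.

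The promoters are shown first because 8 of them carry a motif by which the responses are described further on. The letters TGATGNAAN, the composite C/EBP-ATF element, were searched on both strands of RefSeq promoters (GRCh38.p14), each covering 250 bases before to 50 bases after the gene's start. The table held promoters of 30 of the 37 genes, 16 cytosolic and 14 mitochondrial. The motif was in 7 of the 16 cytosolic promoters (43.8%) and in 1 of the 14 mitochondrial promoters (7.14%), against 3.61% of all 35116 promoters of that length. Members were counted by gene and the 35116 by promoter, whether or not their genes are expressed in these cells. The cyclic AMP response element, TGACGTCA, was in none of the 30, and in 1.85% of all promoters. Each match is printed on the strand of the gene, in capitals, with 40 bases before it and up to 20 after it. Where the gene's start comes sooner than that, the sequence ends before the start or with the match.
AARS1, chr16:70289666-70289734, minus strand: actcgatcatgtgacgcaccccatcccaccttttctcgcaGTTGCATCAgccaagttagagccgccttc
GARS1, chr7:30594804-30594872, plus strand: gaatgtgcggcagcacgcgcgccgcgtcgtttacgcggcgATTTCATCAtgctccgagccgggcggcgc
CARS1, chr11:3057418-3057466, minus strand: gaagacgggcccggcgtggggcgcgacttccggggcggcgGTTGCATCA
TARS1, chr5:33440926-33440974, plus strand: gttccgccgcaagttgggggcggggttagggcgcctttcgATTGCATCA
NARS1, chr18:57621814-57621862, minus strand: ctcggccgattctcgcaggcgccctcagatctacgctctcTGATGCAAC
IARS1, chr9:92293698-92293751, minus strand: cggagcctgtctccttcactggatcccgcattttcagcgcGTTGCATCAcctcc
MARS1, chr12:57488023-57488071, plus strand: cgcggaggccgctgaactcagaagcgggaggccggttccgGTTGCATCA
YARS2, chr12:32756066-32756134, minus strand: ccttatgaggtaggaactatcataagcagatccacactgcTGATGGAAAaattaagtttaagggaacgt

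The match began 188 bases before the RefSeq start in AARS1, 34 in GARS1, 14 in IARS1, 5 in MARS1 and 3 in CARS1. It began at base 2 of the transcript in TARS1 and base 15 in NARS1. The RefSeq starts can differ from the ends of the gene spans given below. The match of AARS1 lies inside the span given for that gene. TARS1 alone among the 30 matched the stricter letters TGATGCAAT, which 0.236% of all promoters hold. A match shows only that the letters are there, and binding at these promoters was not measured.

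In TOV-112D cells, synthetases differed in level by compartment with the vehicle alone. Levels between genes are given in TPM, which corrects for transcript length, for the 25 genes whose transcripts could all be paired with their gene. In the DMSO libraries the 15 cytosolic genes ran from FARSB, at 65.5 and 62.1 TPM, to KARS1, at 193 and 191 TPM, and QARS1, at 190 and 193 TPM, which overlapped. The 10 mitochondrial genes ran from VARS2, at 4.0 and 4.0 TPM, and PARS2, at 3.9 and 4.4 TPM, which overlapped, to IARS2, at 121 and 119 TPM. IARS2, which charges mitochondrial isoleucine tRNA, was thus as high as many cytosolic genes, and the 9 other mitochondrial genes lay below every cytosolic gene in both DMSO libraries. VARS2 was at or under 4.6 TPM in every library, mostly from a short transcript, so its values say little about the full-length enzyme.

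UCI-1001 raised 11 cytosolic synthetase transcripts and left most mitochondrial ones without a call. Of the 20 cytosolic genes, 11 were called higher than in DMSO at an edgeR adjusted p under 0.05, beside 9.39% of all 14177 genes. None was called lower by edgeR, and the count lower was also 0 at an unadjusted p under 0.05 and 0 by DESeq2. The median log2 fold change of the cytosolic genes was 0.15, against 0.00 over all genes. Of the 17 mitochondrial genes, 2 were called higher and 2 lower, with a median of -0.06. Over all genes 6.36% were called lower, and 15.7% in either direction.

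AARS1, the alanine enzyme (chr16:70251983-70289707, minus strand, GRCh38), rose most. It lay at 202 and 206 CPM in DMSO and at 353 and 370 CPM in the treated libraries, which is 0.83 higher on the log2 scale (SE 0.04, edgeR adjusted p = 6.56e-09). CARS1, the cysteine enzyme, lay at 49.8 and 52.6 CPM in DMSO and at 69.6 and 65.5 CPM with the compound, a log2 fold change of 0.40 (SE 0.06, edgeR adjusted p = 2.23e-04). GARS1, the glycine enzyme of both compartments, went from 146 and 140 to 183 and 191 CPM, a log2 fold change of 0.39 (SE 0.04, edgeR adjusted p = 4.01e-05). None of these 3 genes overlapped between the groups. TARS1, for threonine, went from 167 and 171 to 205 and 223 CPM (log2 fold change 0.34, SE 0.04). YARS1, for tyrosine, went from 152 and 151 to 186 and 187 CPM (0.30, SE 0.04), and EPRS1 from 234 and 228 to 277 and 292 CPM (0.30, SE 0.04). The edgeR adjusted p-values of these 3 genes were 1.07e-04, 1.14e-04 and 1.90e-04. NARS1, MARS1, IARS1, SARS1 and LARS1 were also called higher, with log2 fold changes of 0.28, 0.20, 0.18, 0.16 and 0.13. The calls of SARS1 and LARS1 were lost under DESeq2 and without several single libraries, DMSO replicate 1 among them, and without DMSO replicate 2 those of IARS1 and MARS1 were lost as well, which left 7 cytosolic genes called higher.

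Among the mitochondrial genes, MARS2, the mitochondrial methionine enzyme (chr2:197705369-197708395, plus strand), showed the largest change. It went from 27.8 and 25.2 CPM in DMSO to 20.2 and 19.3 CPM, a log2 fold change of -0.43 (SE 0.09, edgeR adjusted p = 5.46e-03). EARS2, for glutamate, was higher by 0.24 on the log2 scale (SE 0.06, edgeR adjusted p = 0.0140), SARS2, for serine, was higher by 0.23 (SE 0.07, edgeR adjusted p = 0.0465) and TARS2 fell by 0.20 (SE 0.06, edgeR adjusted p = 0.0315). DESeq2 called 0 of these 4, and all 4 calls were also lost without DMSO replicate 1. HARS1 and HARS2, neighbouring genes that overlap at their starts and are read in opposite directions, had log2 fold changes of 0.07 and -0.10, and neither was called. HARS1 ends at base 140691537 of chromosome 5 and HARS2 begins at 140691430, and it is not stated whether counting used strand, so reads in that stretch cannot be told apart. KARS1, the lysine enzyme of both compartments, had a log2 fold change of -0.05 (95% interval -0.14 to 0.03).

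UCI-1014 raised most cytosolic synthetase transcripts, lowered a few of them, and lowered most of the mitochondrial ones that were called. Of the 20 cytosolic genes, 14 were called higher and 4 lower than in DMSO, beside 23.7% of all genes called higher and 23.4% called lower. Their median log2 fold change was 0.33, against -0.02 over all genes. Of the 17 mitochondrial genes, 1 was called higher and 6 lower, with a median of -0.15. The share of mitochondrial genes called in either direction, 7 of 17, was near the 47.1% of all genes. Both compounds were set against the same DMSO libraries, so their values are given side by side and their likeness was not tested.

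**Figure D1:**
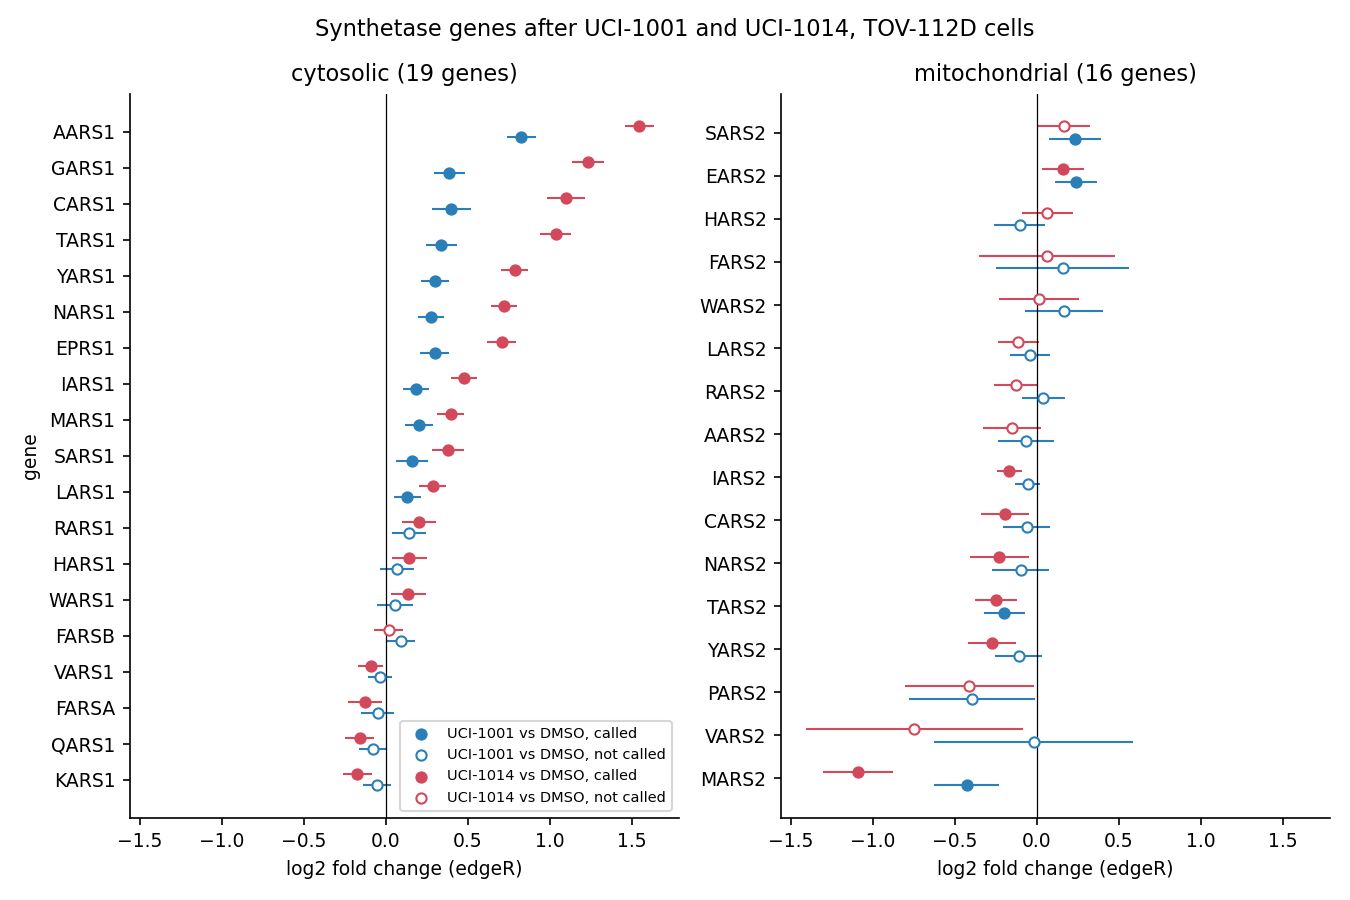
Log2 fold changes (edgeR) of 19 cytosolic (left) and 16 mitochondrial (right) synthetase genes in TOV-112D cells for UCI-1001 (blue) and UCI-1014 (red) against the same DMSO libraries. Points are estimates, bars are 95% intervals, and filled points passed an adjusted p under 0.05. From AARS1 down to LARS1 the cytosolic genes lie right of 0 for both compounds, while MARS2 lies farthest left among the mitochondrial genes called.

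AARS1 reached 612 and 579 CPM with UCI-1014, a log2 fold change against DMSO of 1.55 (SE 0.04, edgeR adjusted p = 8.19e-13). GARS1 reached 326 and 347 CPM (log2 fold change 1.23, SE 0.04, edgeR adjusted p = 1.83e-11), CARS1 reached 112 and 108 CPM (1.10, SE 0.05, edgeR adjusted p = 7.14e-10) and TARS1 reached 350 and 344 CPM (1.04, SE 0.04, edgeR adjusted p = 1.03e-10). The counts of these 4 genes more than doubled. YARS1 lay at 266 and 256 CPM, NARS1, the asparagine enzyme, at 294 and 305 CPM, and EPRS1 at 387 and 368 CPM, with log2 fold changes of 0.79 (SE 0.04, edgeR adjusted p = 7.09e-10), 0.72 (SE 0.04, edgeR adjusted p = 1.30e-09) and 0.71. All libraries of these 7 genes lay above both DMSO libraries. IARS1 (isoleucine), MARS1 (methionine), SARS1 (serine), LARS1 (leucine), RARS1 (arginine), HARS1 (histidine) and WARS1 (tryptophan) followed with log2 fold changes of 0.48, 0.40, 0.38, 0.29, 0.20, 0.14 and 0.14. The calls of HARS1 and WARS1 were lost under DESeq2, and the other 12 held in every alternative tried.

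KARS1 fell with UCI-1014, from 223 and 224 CPM in DMSO to 192 and 204 CPM, a log2 fold change of -0.17 (SE 0.04, edgeR adjusted p = 2.69e-03). QARS1, for glutamine, FARSA and VARS1, for valine, fell by 0.16, 0.12 and 0.09 on the log2 scale. KARS1's call held in every alternative, while those of FARSA and VARS1 were lost under DESeq2 and that of QARS1 without DMSO replicate 1 or UCI-1014 replicate 1. VARS1 is spread over 7 identifiers in the table, whose reads were added.

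MARS2 went to 13.7 and 11.3 CPM with UCI-1014, a log2 fold change of -1.09 (SE 0.10, edgeR adjusted p = 5.54e-07), while MARS1, the cytosolic enzyme for the same amino acid, went from 206 and 202 to 261 and 275 CPM. YARS2, for tyrosine, went from 43.9 and 48.2 to 36.9 and 39.3 CPM (-0.27, SE 0.07, edgeR adjusted p = 4.69e-03), and TARS2, for threonine, from 53.8 and 54.7 to 44.5 and 46.7 CPM (-0.25, SE 0.06, edgeR adjusted p = 2.90e-03). The treated libraries of MARS2, YARS2 and TARS2 all lay below the DMSO libraries. NARS2, CARS2 and IARS2 fell by 0.23, 0.19 and 0.17 on the log2 scale. Of these 6 falls, those of MARS2, TARS2 and IARS2 held in every alternative. EARS2 was higher by 0.16 (edgeR adjusted p = 0.0414), a call lost under DESeq2. YARS2 lost its call without DMSO replicate 2, and CARS2 and NARS2 lost theirs without either DMSO library, so the count lower fell to 3 without DMSO replicate 2. Neither compound gave a call for FARSB among the cytosolic genes or for AARS2, FARS2, HARS2, LARS2, PARS2, RARS2, VARS2 and WARS2 among the mitochondrial ones, whose log2 fold changes with UCI-1014 ran from -0.75 (VARS2, from 2.16 and 2.38 to 1.43 and 1.28 CPM) to 0.07 (HARS2).

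**Figure D2:**
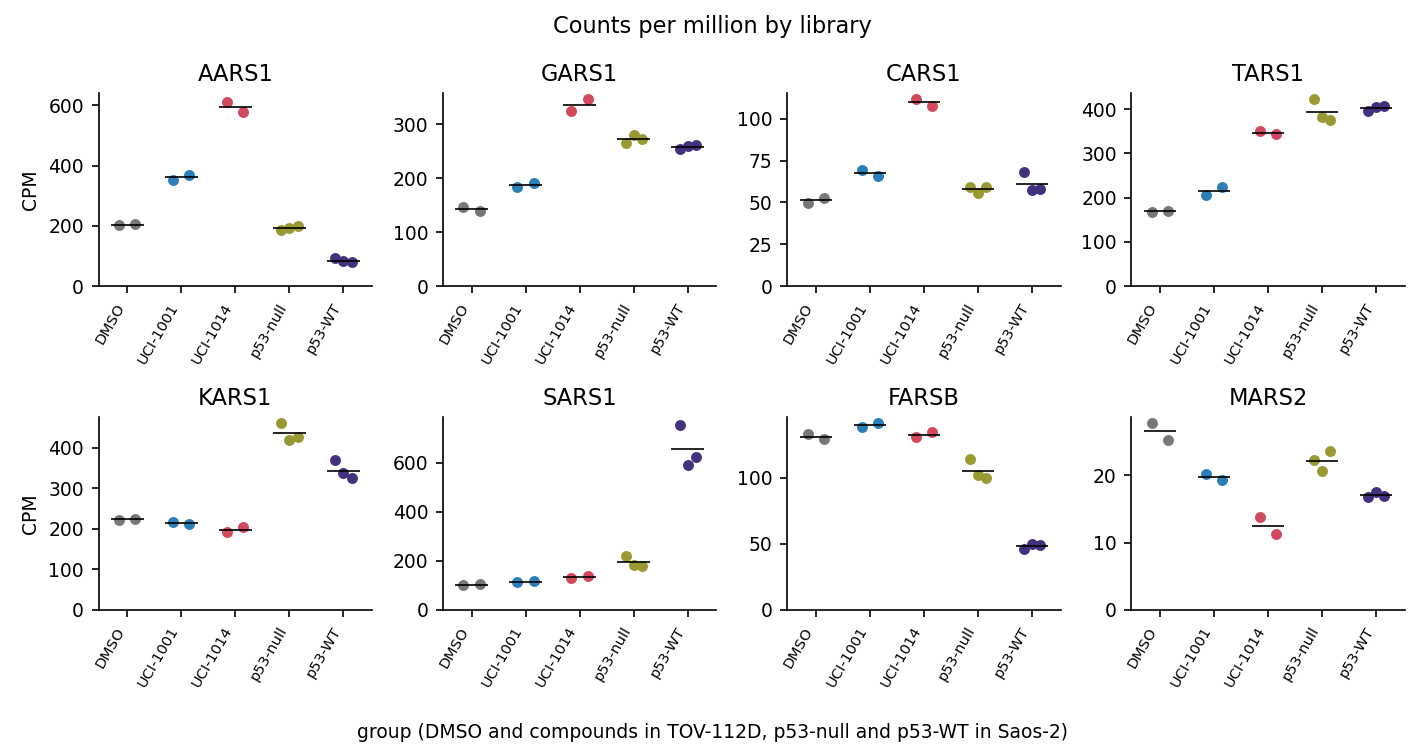
CPM (vertical axes, each from 0) of 8 synthetase genes in each of the 12 libraries, as points, with group means as lines. AARS1, GARS1, CARS1 and TARS1 step up from DMSO to UCI-1001 and to UCI-1014, MARS2 steps down, and SARS1 and FARSB stand apart between p53-null and p53-WT.

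The compounds were compared directly as the only pair, at the same time and with doses not known to match. Of the cytosolic genes, 11 were higher with UCI-1014 than with UCI-1001 and 1 was lower, beside 17.1% and 13.9% of all genes and 31.1% in either direction, and the median was 0.17. Of the mitochondrial genes, 2 were lower, with a median of -0.10, and none was called higher by edgeR or by DESeq2 (0 genes, with 1 at an unadjusted p under 0.05, HARS2). GARS1 differed most among the cytosolic genes, at 183 and 191 CPM against 326 and 347 CPM, a log2 difference of 0.85 (SE 0.04, edgeR adjusted p = 3.62e-09). AARS1, CARS1 and TARS1 differed by 0.72, 0.70 and 0.70, YARS1 by 0.48, NARS1 by 0.45 and EPRS1 by 0.41. MARS2 was lower with UCI-1014, by 0.66 on the log2 scale (SE 0.10, edgeR adjusted p = 2.19e-04). The compounds were not shown to differ for the other 23 genes. For RARS1 the difference was 0.06 (95% interval -0.04 to 0.16), and for QARS1 it was -0.08 (-0.17 to 0.01). The low calls for KARS1 (-0.12) and IARS2 (-0.11) were lost in most alternatives.

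Within TOV-112D cells, cytosolic genes were set beside their mitochondrial counterparts, which gives 16 pairs when EPRS1 is paired with both EARS2 and PARS2. The phenylalanine enzymes are not among the pairs, since the cytosolic enzyme has separate genes for its subunits. The log2 fold change of the cytosolic gene lay above that of its counterpart in 12 of 16 pairs for UCI-1001 (median difference 0.21), in 16 of 16 for UCI-1014 (median 0.65) and in 15 of 16 between the compounds (median 0.46). With UCI-1014 the widest pair was AARS1 and AARS2, 1.70 apart on the log2 scale, followed by MARS1 and MARS2, 1.49 apart. The closest was HARS1 and HARS2, 0.08 apart. The estimates of the phenylalanine genes had the other order. For UCI-1014, FARSA at -0.12 and FARSB at 0.02 lay below FARS2 at 0.06. For UCI-1001, FARSA at -0.05 and FARSB at 0.09 lay below FARS2 at 0.16. The 95% interval of FARS2 ran from -0.35 to 0.48 for UCI-1014 and from -0.25 to 0.56 for UCI-1001. The order of these genes is therefore not settled. No test was made on the pairs.

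The summed CPM of the 20 cytosolic genes divided by that of the 17 mitochondrial genes was 4.21 and 4.18 in the DMSO libraries, 4.82 and 4.90 with UCI-1001, and 6.48 and 6.42 with UCI-1014. The 3 groups did not overlap. The cytosolic sum went from 3570 and 3521 CPM in DMSO to 4995 and 4959 CPM with UCI-1014, and the mitochondrial sum from 847 and 843 to 771 and 773 CPM. In a bulk sample, fewer cells of a kind and less RNA per cell cannot be told apart. In Saos-2 cells the ratio was 6.25, 6.19 and 6.14 in p53-null and 6.82, 6.58 and 6.79 in p53-WT libraries. The cytosolic sum there was 4897, 4644 and 4621 CPM in p53-null and 4838, 4548 and 4607 CPM in p53-WT libraries. Without SARS1 it was 4677, 4460 and 4442 against 4085, 3956 and 3984 CPM. The mitochondrial sum was 784, 750 and 752 against 710, 692 and 679 CPM. With SARS1 left out, the ratio of these sums was thus no higher in p53-WT than in p53-null libraries.

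**Figure D3:**
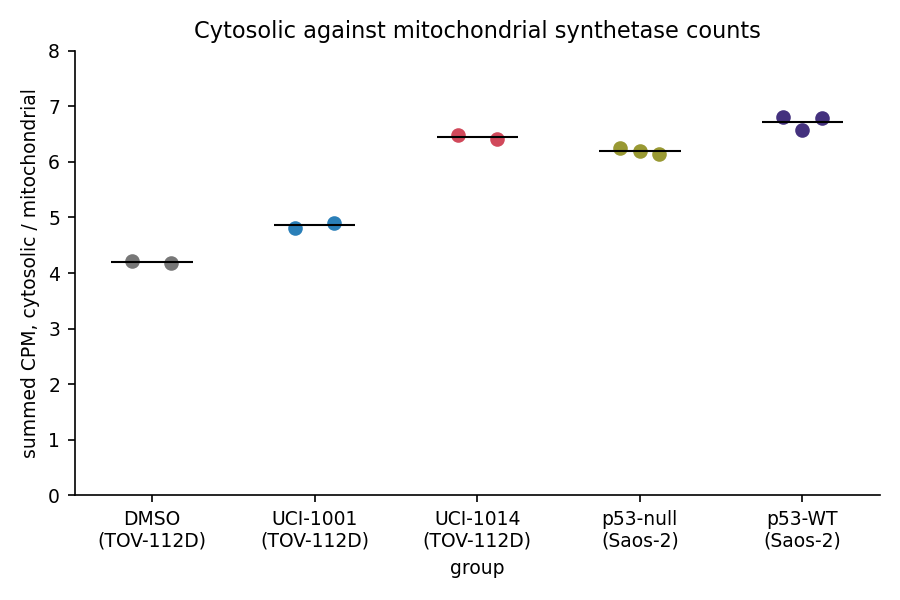
Summed CPM of the cytosolic synthetases divided by that of the mitochondrial synthetases (vertical axis, from 0) in each library, as points, with group means as lines. The UCI-1014 libraries, at 6.48 and 6.42, lie above the UCI-1001 libraries, at 4.82 and 4.90, and the DMSO libraries, at 4.21 and 4.18.

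The 7 cytosolic genes with the composite element were all called higher with UCI-1001, with a median log2 fold change of 0.34, and with UCI-1014, with a median of 1.04. Of the 9 cytosolic genes whose promoters lacked it, 2 were called higher with UCI-1001 (median 0.07). With UCI-1014, 5 of them were called higher and 3 lower (median 0.14). These counts stand beside 9.39% of all genes called higher with UCI-1001, and 23.7% called higher and 23.4% lower with UCI-1014. With UCI-1014 the values ran from 0.40 to 1.55 with the motif and from -0.17 to 0.71 without it, so the ranges overlapped, EPRS1 at 0.71 being the highest gene without a match. YARS2, the mitochondrial gene with a match, fell by 0.27. LARS1, VARS1 and YARS1 had no promoter in the table. With p53-WT in Saos-2 cells, 3 of the 7 were called lower (AARS1, IARS1 and MARS1), beside 33% of all genes. The other 4 were not called. The element was chosen with earlier results of these data known, and its part in the changes was not tested.

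The multi-synthetase complex held genes with and without a call. Of its 8 members measured, among them EPRS1, IARS1, LARS1, MARS1, QARS1, RARS1 and KARS1, 4 were called higher with UCI-1001, and 5 higher and 2 lower with UCI-1014. Of the 12 cytosolic genes outside it, 7 were called higher with UCI-1001, and 9 higher and 2 lower with UCI-1014. Over all genes, 9.39% were called higher with UCI-1001, and 23.7% higher and 23.4% lower with UCI-1014. The medians with UCI-1014 were 0.24 in the complex and 0.55 outside it. Of the scaffold genes, AIMP1 rose with both compounds, from 27.3 and 30.4 CPM to 36.2 and 37.5 CPM with UCI-1001 and to 37.0 and 39.1 CPM with UCI-1014, while AIMP2 (log2 fold changes 0.07 and 0.14) and EEF1E1 (0.04 and -0.16) were not called. By structural class, 8 of the 10 cytosolic class I genes and 6 of the 10 class II genes were called higher with UCI-1014.

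Genes in neighbouring parts of the translation machinery were called in both directions with UCI-1014, beside the 47.1% of all genes called with that compound. The 5 cytosolic elongation factor genes had log2 fold changes between -0.05 and 0.03 with UCI-1001, and with UCI-1014 EEF1D was called lower (-0.17) and the other 4 were not called. EEF2, the translocation factor, lay at 3868 and 3854 CPM in DMSO and at 3943 and 3991 CPM with UCI-1014. Of 4 mitochondrial elongation factor genes, with UCI-1014 GFM2 was called higher (0.33), and TSFM (-0.27) and TUFM (-0.14) lower. Of 5 listed genes related to synthetases or to the removal of misplaced amino acids from tRNA, 1 was called with UCI-1014, DTD1 (-0.21). The other 4 were AARSD1, PRORSD1P, DTD2 and TARS3. Of the 4 genes that complete charging in mitochondria (GATB, GATC, QRSL1 and MTFMT), QRSL1 was called higher (0.21) and GATC lower (-0.17).

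Genes of the amino acid response, the program that ATF4 drives, rose in the same libraries. Of 20 listed, 17 were called higher with UCI-1001 and 18 with UCI-1014, with medians of 0.67 and 1.51. The shares of all genes called higher were 9.39% and 23.7%, with medians of 0.00 and -0.02. ATF4 itself lay at 154 and 156 CPM in DMSO, 213 and 208 CPM with UCI-1001 and 348 and 347 CPM with UCI-1014, with log2 fold changes of 0.44 and 1.17. ATF3, a stress-induced transcription factor, rose by 4.05 and 5.72, CHAC1, a glutathione-degrading enzyme, by 3.74 and 5.25, DDIT3 (CHOP) by 3.42 and 4.78, and SESN2, an amino acid and stress sensor, by 2.01 and 4.31 on the log2 scale. ASNS, asparagine synthetase, lay at 52.0 and 51.2 CPM in DMSO and at 223 and 236 CPM with UCI-1014. Their part in the synthetase changes was not tested.

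SARS1 was a case where the gene count and its coding transcript parted. The count of SARS1 rose with both compounds, but its main coding transcript, SARS1-201, which has 11 exons and 514 codons, lay at 88.0 and 88.9 TPM in DMSO, 94.3 and 95.0 TPM with UCI-1001 and 90.9 and 97.2 TPM with UCI-1014. SARS1-206, for which the annotation defines no coding sequence, lay at 11.1 and 12.2 TPM in DMSO, 25.7 and 31.2 TPM with UCI-1001 and 63.8 and 63.0 TPM with UCI-1014. Its share of the gene's TPM was 10.7% and 11.2% in DMSO, 20.3% and 23.7% with UCI-1001 and 38.4% and 37.1% with UCI-1014. It consists of 2 exons, at chr1:109213932-109214128, shared with the first exon of SARS1-201, and at chr1:109214547-109215153, within the first intron of SARS1-201 (GRCh38, GENCODE release 44, plus strand). Summed over the coding transcripts, SARS1 TPM was 1.08-fold that of DMSO with UCI-1014, against 1.59-fold over all its transcripts. kallisto divides reads between overlapping transcripts by estimation, and reads of unspliced RNA in the first intron cannot be told apart from this transcript here. For AARS1, coding transcripts took 94.1% of the TPM in DMSO and 93.1% with UCI-1014, and for GARS1 96.3% and 90.4%. Their rises thus stood in the coding transcripts as well, at 2.86-fold and 2.27-fold. The coding transcripts of YARS1 rose 1.57-fold with UCI-1014, against 1.84-fold over all its transcripts. For TARS1 these values were 1.98-fold and 2.12-fold, and for EPRS1 1.60-fold and 1.58-fold.

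**Figure D4:**
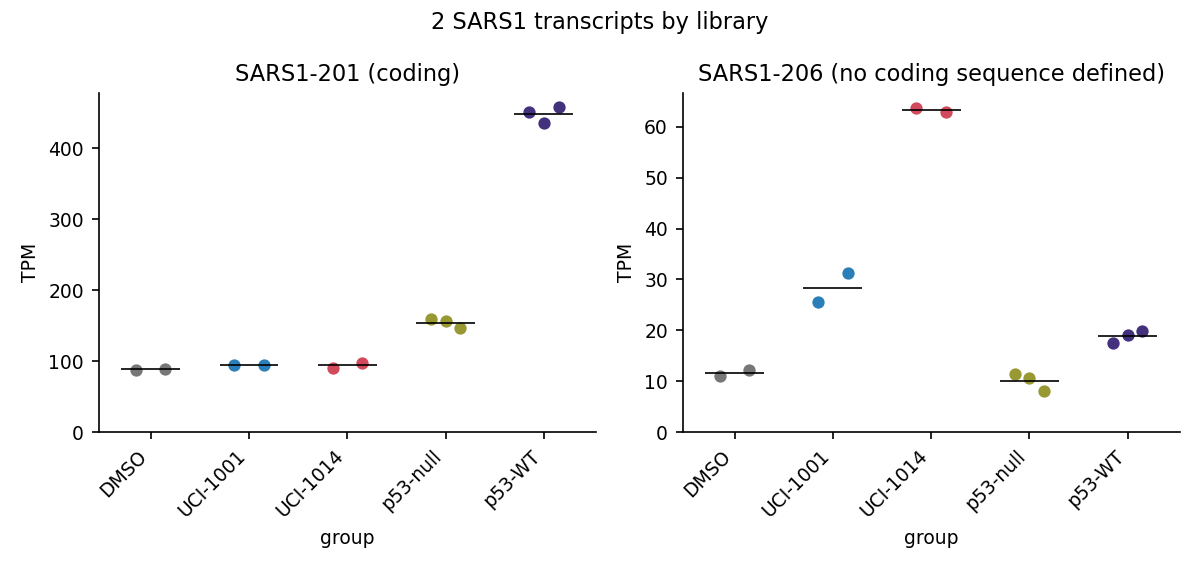
TPM (vertical axes, each from 0) of the coding transcript SARS1-201 (left) and of SARS1-206, with no coding sequence defined (right), in each library, as points, with group means as lines. SARS1-206 lies at 11.1 and 12.2 TPM in DMSO and at 63.8 and 63.0 TPM with UCI-1014, while SARS1-201 lies between 88.0 and 97.2 TPM in TOV-112D cells and is highest with p53-WT.

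KARS1 makes its cytosolic and mitochondrial forms by splicing. The transcript of the cytosolic form, KARS1-201 (597 codons), took 84.8% and 86.3% of the gene's TPM in DMSO and 84.9% and 82.4% with UCI-1014. That of the mitochondrial form, KARS1-202 (625 codons), took 10.4% and 9.70% in DMSO, 9.37% and 9.26% with UCI-1001 and 7.28% and 7.14% with UCI-1014. The libraries of the 3 groups did not overlap for KARS1-202, and no test was made on transcripts.

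In Saos-2 cells, p53-WT went with changes of both signs in both compartments. Of the 20 cytosolic genes, 4 were called higher and 9 lower, and of the 17 mitochondrial genes, 4 were called higher and 6 lower, beside 33.5% of all 14275 genes called higher and 33% called lower. The cytosolic median was -0.05, the mitochondrial median -0.16 and the median over all genes -0.01. In either direction, 23 of the 37 were called, near the 66.5% of all genes. Without both libraries numbered 1, 5 cytosolic genes were called higher and 9 lower, and 4 mitochondrial genes higher and 8 lower, which added RARS1, LARS2 and TARS2 to the calls.

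SARS1, the serine enzyme (chr1:109213918-109238182, plus strand), had the largest rise. It lay at 220, 184 and 179 CPM in p53-null and at 752, 592 and 623 CPM in p53-WT cells, a log2 fold change of 1.76 (SE 0.13, edgeR adjusted p = 4.95e-07). No p53-WT library came near the p53-null range. Here the coding transcript carried it, with SARS1-201 at 159, 157 and 147 TPM in p53-null and at 451, 435 and 459 TPM in p53-WT cells, and SARS1-206 took 3.67% to 4.09% of the gene's TPM in p53-WT. EPRS1 went from 212, 223 and 205 to 333, 351 and 356 CPM (log2 fold change 0.70, SE 0.10, edgeR adjusted p = 7.11e-05). YARS1 and QARS1 were called higher by 0.39 and 0.34, and both calls were lost on log2(TPM + 1).

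AARS1, the gene that rose most with the compounds, fell most among the cytosolic genes with p53-WT. It went from 187, 192 and 201 to 92.1, 82.4 and 79.2 CPM, a log2 fold change of -1.19 (SE 0.10, edgeR adjusted p = 1.69e-06). The subunits of the phenylalanine enzyme both fell, FARSB from 114, 102 and 100.1 to 46.1, 50.1 and 49.3 CPM (-1.12, SE 0.11, edgeR adjusted p = 3.19e-06) and FARSA from 147, 138 and 148 to 91.3, 73.2 and 79.6 CPM (-0.82, SE 0.11, edgeR adjusted p = 5.65e-05). No library of these 3 genes overlapped between the groups. MARS1 fell by 0.85, LARS1 by 0.74 and VARS1 by 0.71 on the log2 scale. KARS1 and IARS1 fell by 0.34 and 0.33, and both calls were lost without p53-WT replicate 3. GARS1, TARS1 and CARS1, which rose strongly with the compounds in TOV-112D cells, had log2 fold changes of -0.08 (95% interval -0.28 to 0.13), 0.03 (-0.19 to 0.25) and 0.07 (-0.16 to 0.31). The cell lines and times differ, and these values stand side by side with no test between them.

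Among the mitochondrial genes, NARS2, the asparagine enzyme, fell from 18.5, 15.3 and 14.0 to 10.6, 9.66 and 8.86 CPM (-0.71, SE 0.14, edgeR adjusted p = 9.50e-04), and AARS2, YARS2, MARS2 and EARS2 fell by 0.59, 0.51, 0.38 and 0.36 on the log2 scale. IARS2 rose from 163, 154 and 150 to 228, 244 and 239 CPM (0.61, SE 0.10, edgeR adjusted p = 1.93e-04), opposite in sign to IARS1. WARS2 rose from 22.2, 18.6 and 20.1 to 29.8, 29.4 and 30.4 CPM (0.56, SE 0.11, edgeR adjusted p = 9.28e-04). PARS2 and CARS2 were called higher by 0.44 and 0.32, calls lost under DESeq2 and without p53-null replicate 2, p53-null replicate 3 or p53-WT replicate 1, each of which left 2 mitochondrial genes called higher. HARS1 and HARS2, at -0.01 and 0.00, were not called, nor were NARS1, RARS1, WARS1, FARS2, LARS2, RARS2, SARS2, TARS2 and VARS2, whose log2 fold changes ran from -0.68 (VARS2, under 1 CPM in every Saos-2 library) to 0.19 (RARS1).

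**Figure D5:**
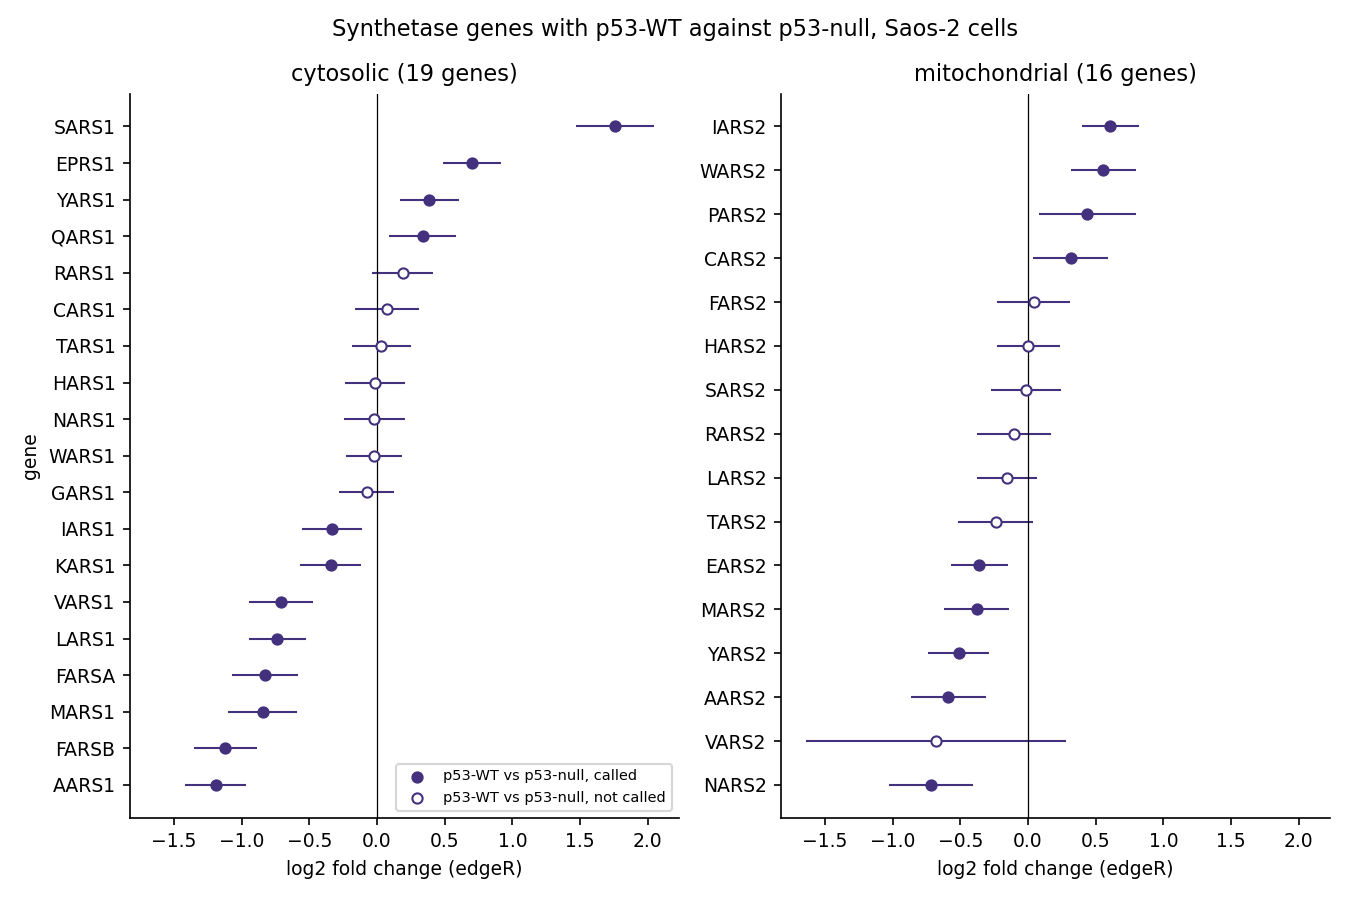
Log2 fold changes (edgeR) of 19 cytosolic (left) and 16 mitochondrial (right) synthetase genes in Saos-2 cells with p53-WT against p53-null. Points are estimates, bars are 95% intervals, and filled points passed an adjusted p under 0.05. SARS1 lies farthest right at 1.76 and AARS1 farthest left at -1.19, and both compartments hold genes on either side of 0.

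Among the pairs in Saos-2 cells, the log2 fold change of the cytosolic gene lay above that of its mitochondrial counterpart in 8 of 16. SARS1 and SARS2 were 1.77 apart with the cytosolic gene higher, while IARS1 lay 0.94 below IARS2 (difference -0.94). With p53-WT, 33.5% of all genes were called higher and 33% lower, beside which the next counts stand. Of the 8 complex members, 2 were called higher and 5 lower. All 3 scaffold genes fell, EEF1E1 by 1.49, AIMP2 by 1.23 and AIMP1 by 0.35 on the log2 scale. EEF1E1 went from 91.8, 68.0 and 63.9 to 28.8, 26.5 and 24.3 CPM. The cytosolic elongation factors moved the other way, with 4 of 5 called higher, among them EEF2 (0.98). Of the 20 amino acid response genes, 9 were called higher and 10 lower. ATF4 fell by 0.46 and ASNS by 0.58, while NUPR1, a stress-induced chromatin protein, rose by 3.56 from under 1 CPM, SESN2, also a known p53 target, by 3.11 and CHAC1 by 3.02 on the log2 scale.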

How the data were processed

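RNA-seq was made from 6 TOV-112D and 6 Saos-2 libraries. Per the study's methods and the labels, the authors estimated transcript abundance with kallisto 0.48.0 (GRCh38) and used DESeq2 1.38.3. The deposited gene table holds these estimated counts summed by Ensembl gene and cut to whole numbers, and the deposited transcript files also hold TPM, which the authors' kallisto run scaled by effective transcript length and library. Strand use in counting is not given in the sources used here.

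The 40295 identifiers were summed by symbol, except 8043 without a symbol and 29 whose symbols had become dates. Older symbols such as AARS were matched by identifier. VARS1, CARS1 and SARS2 have several identifiers, between which reads are divided. edgeR 4.0.16 (R 4.3.3) gave TMM factors, the filterByExpr filter and a quasi-likelihood test, in a single fit per cell line, with Benjamini-Hochberg adjustment over all genes tested and calls at an adjusted p under 0.05. Intervals are 95% intervals of the fit. The test was also run on counts drawn from its own fitted means and spread. Such a run cannot show how the test behaves if the libraries are technical replicates. TPM was summed by symbol for the 25 members whose paired transcripts gave back the table's count within 1 count. Shown promoters come from RefSeq (GRCh38.p14), and protein sequences were not used here. The alternatives were RLE factors, DESeq2 1.42.0, no filter, unsummed identifiers, limma 3.58.1 on log2(TPM + 1), the replicate number as a block, members without GARS1 and KARS1, and libraries left out.

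Some members are counted but not reported here by name. In each comparison the 6 cytosolic and 3 mitochondrial genes with the largest changes among those called, and GARS1, KARS1, HARS1 and HARS2, were to have full values. The members, the other gene lists and the motifs were chosen with earlier results of these data known.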

Additional observations from a re-analysis of the deposited data

How the results depend on the processing

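AARS1, GARS1, CARS1, TARS1, YARS1, NARS1 and EPRS1 were called higher with both compounds, and SARS1 and EPRS1 higher and AARS1, FARSA and FARSB lower with p53-WT, under every alternative run. Of the cytosolic genes called, 7 of 11 (UCI-1001, higher), 12 of 14 (UCI-1014, higher), 10 of 11 (UCI-1014 over UCI-1001, higher) and 6 of 9 (p53-WT, lower) kept their call in every alternative. MARS2 kept its fall in every alternative for UCI-1014 and between the compounds, but not for UCI-1001. The cause of the changes listed here was not tested. Under DESeq2, UCI-1001 gave 1139 genes over the whole table, with 0 mitochondrial synthetases higher and 0 lower. DESeq2 gave 2 cytosolic synthetases lower and 0 mitochondrial higher for UCI-1014, 2636 genes, 0 cytosolic lower and 1 mitochondrial lower between the compounds, and 2 mitochondrial higher for p53-WT. Between the compounds, 0 cytosolic synthetases were lower with RLE factors, with identifiers not summed and without GARS1 and KARS1, since KARS1 was the only one called. RLE factors gave 2 cytosolic synthetases lower for UCI-1014, identifiers not summed 1 mitochondrial higher for UCI-1001, and no filter 0 mitochondrial higher for UCI-1014. limma on log2(TPM + 1), which tests fewer genes, gave 451 genes, a cytosolic median of 0.25 and 0 mitochondrial synthetases called either way for UCI-1001. For UCI-1014 it gave 3877 genes, 9 cytosolic higher of the 15 it holds, a cytosolic median of 0.46 and 0 mitochondrial higher. Between the compounds it gave 1904 genes, 0 cytosolic lower, a cytosolic median of 0.21 and 1 mitochondrial lower, and for p53-WT 2 cytosolic higher, a cytosolic median of -0.23, 2 mitochondrial higher, and CARS2 at -0.039, the sole member to turn in sign after being called.

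Same-numbered libraries deviated from their group means with correlations of 0.06, -0.03 and -0.16 in TOV-112D and 0.14, 0.09 and 0.07 in Saos-2 cells. With 2 libraries in a group, different-numbered TOV-112D libraries give the same values with opposite sign. Different-numbered Saos-2 libraries ran from -0.18 to 0.13. These values cannot tell whether same-numbered libraries shared a culture or batch. With the replicate number as a block, UCI-1001 gave 1 mitochondrial synthetase higher and 1 lower, UCI-1014 2 cytosolic lower and 0 mitochondrial higher, and the comparison of the compounds 0 cytosolic lower and 1 mitochondrial lower. With the UCI-1014 numbers crossed, an alternative chosen after seeing the data, the compounds differed in 4979 genes.

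Leaving out 1 library at a time, UCI-1001 gave 952 (without DMSO replicate 1) to 2538 genes, 7 to 12 cytosolic synthetases higher with medians of 0.13 to 0.17, and 0 to 2 mitochondrial higher and 0 to 2 lower. UCI-1014 gave 1 to 4 cytosolic lower, 0 to 1 mitochondrial higher and 3 to 5 lower. Between the compounds there were 0 to 1 cytosolic lower, a cytosolic median of 0.17 to 0.20, and 1 mitochondrial lower. For p53-WT there were 6 to 9 cytosolic lower and 2 to 4 mitochondrial higher. A group left with a single library is assumed to vary like the others. The comparison of protein sequences was not run. Transcript values have no test, and counts of VARS2, FARS2 and PARS2 are low.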
